A study of Mus musculus with 6 samples.

Results

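The transcription factor gene Rel and 9 further genes of the NF-kB pathway were followed in whole mouse liver: the subunit genes Rela, Relb, Nfkb1 and Nfkb2, the IkB family genes Nfkbia, Nfkbiz and Bcl3, the kinase gene Ikbkb and the deubiquitinase gene Tnfaip3. These 10 of the 21512 genes in the deposited table were chosen by the higher Rel value after anti-PD-1 in these same libraries, together with Rel's pathway partners. The difference between the groups in the 10 genes is therefore given as a description, and the counts of members past a threshold, printed once below beside the shares over all genes, support nothing. All 10 were in the table and passed the filter on low values in both groups.

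Livers came from C57BL/6J mice that all received a high-fat diet and carbon tetrachloride (CCl4) for 12 weeks, a regimen that gives metabolic dysfunction-associated steatohepatitis (MASH) with fibrosis. During that time 3 mice were given an antibody against PD-1, an inhibitory receptor of activated T cells, and 3 mice an isotype control antibody, every 3 days. The series compares liver gene expression between these groups, and every mouse, controls included, carried the diet and toxin injury. The sample titles name PD-1 for all 3 treated mice and gave the groups, although the treatment entry reads Anti-PD-2 for the second of them and Anti-PD-3 for the third. The age and sex of the mice are not given in the sources used here.

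NF-kB is a dimer of proteins that share the Rel homology domain. In resting cells the dimers are held inactive by IkB proteins, until the IKK kinase complex, switched on by receptors for TNF, IL-1 and microbial products, marks IkB for destruction. The freed dimers enter the nucleus and transcribe genes of inflammation and cell survival, among them genes of their own inhibitors, which closes a feedback loop. In liver the pathway is known for protecting hepatocytes from TNF-driven death and for cytokine production by macrophages, and c-Rel, the product of Rel, is best known from lymphocytes and myeloid cells.

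Values are counts per unit of sequencing depth (CPM), scaled by the trimmed mean of M-values (TMM), as the authors deposited them, from 15528364 to 20779319 reads per library. The markers of leukocytes were not evenly spread over the mice. Summed over 5 pan-leukocyte markers the level was 304, 93.1 and 104 CPM in anti-PD-1 replicates 1 to 3, against 124, 83.6 and 74.5 CPM in isotype control replicates 1 to 3. Anti-PD-1 replicate 1 held the highest value of all 6 libraries for 12 of 12 T cell markers, 10 of 10 monocyte and infiltrating macrophage markers, 6 of 6 neutrophil markers in the table and 7 of 9 B cell and plasma cell markers. Over all 21512 genes in the table it did so for 4143. No marker of these lists was at 0 in any library. Resident Kupffer cell markers went the other way: 6 of 8 had a negative fold change, beside 6928 of all 13990 tested genes. Of the 8, 4 lay lower in every anti-PD-1 liver than in every control liver, beside 9.98% of all tested genes. Their summed level was 311 to 408 CPM after anti-PD-1 and 315 to 572 CPM in controls. Hepatocyte markers, which define the tissue, summed to between 85531 and 106388 CPM after anti-PD-1 and between 88229 and 110716 CPM in controls. In whole tissue, more cells of a type and more RNA per cell cannot be told apart.

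Rel was higher in every anti-PD-1 liver than in every control liver. It stood at 36.8, 32.2 and 30.6 CPM in anti-PD-1 replicates 1 to 3, against 18.6, 20.1 and 19.6 CPM in isotype control replicates 1 to 3. The groups did not overlap, and the lowest treated liver lay above the highest control liver. Rel averaged 33.2 ± 3.26 CPM after anti-PD-1 and 19.4 ± 0.77 CPM in controls (SD, n = 3 each), a ratio of means of 1.71. On the log2(CPM + 0.5) scale, which is used for every fold change below, the difference was 0.76 ± 0.11 (SE). Without anti-PD-1 replicate 1, the liver with the highest leukocyte markers, it was 0.68. The T cell marker sum was also higher in every anti-PD-1 liver, at 54.9, 8.86 and 11.7 CPM, against 5.77, 6.82 and 4.27 CPM in controls. Of its 12 markers, 10 did not reach the filter. Among treated livers the 2 did not run alike: anti-PD-1 replicate 1 over the mean of the others was 5.33 for this sum and 1.17 for Rel. The stellate cell marker sum was higher in every anti-PD-1 liver too, at 402, 415 and 413 CPM, against 369, 377 and 356 CPM in controls. Its ratio of anti-PD-1 replicate 1 to the others was 0.97. The sums of the remaining marker lists overlapped between the groups. The part of T cells or stellate cells in the Rel difference was not tested.

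The Rel promoter window is shown because Rel carries the difference, and the Tnfaip3 window because Tnfaip3 followed a different pattern across the livers. Each line gives 250 bases before to 50 bases after the annotated gene start, read 5′ to 3′ on the gene's strand, from RefSeq on GRCm38.p6 (the submitters' processing notes name GRCm39). Capitals mark matches to the NF-kB consensus on either strand, with overlapping matches joined into 1 block. The Rel window is chr11:23770920-23771219, minus strand, and the one shown for Tnfaip3 is chr10:19015361-19015660, minus strand. Another Tnfaip3 window, chr10:19011914-19012213, held no match and is not shown.
Rel: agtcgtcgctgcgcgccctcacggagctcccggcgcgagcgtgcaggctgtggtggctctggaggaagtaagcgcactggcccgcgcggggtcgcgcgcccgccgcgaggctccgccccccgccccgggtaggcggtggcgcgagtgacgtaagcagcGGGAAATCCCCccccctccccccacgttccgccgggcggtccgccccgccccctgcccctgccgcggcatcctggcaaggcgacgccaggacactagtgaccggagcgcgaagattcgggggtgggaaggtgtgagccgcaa
Tnfaip3: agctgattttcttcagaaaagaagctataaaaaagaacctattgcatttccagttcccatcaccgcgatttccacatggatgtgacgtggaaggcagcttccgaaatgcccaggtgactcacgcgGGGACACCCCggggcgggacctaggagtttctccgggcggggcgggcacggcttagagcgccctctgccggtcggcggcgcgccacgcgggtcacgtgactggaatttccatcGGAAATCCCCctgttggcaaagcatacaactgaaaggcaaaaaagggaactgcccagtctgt

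For the other members with a match, the stretch around it is shown so that the letters can be compared, and the capitals at the end of the Nfkb2 stretch begin a further match. The Nfkbia stretch lies in chr12:55492598-55492897 (minus strand), that of Nfkb2 in chr19:46304487-46304786 (plus strand) and that of Bcl3 in chr7:19822706-19823005 (minus strand). Further Nfkb2 windows, starting at chr19:46305445 and chr19:46305680, also held matches and are not shown.
Nfkbia: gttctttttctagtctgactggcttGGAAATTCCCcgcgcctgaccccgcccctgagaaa
Nfkb2: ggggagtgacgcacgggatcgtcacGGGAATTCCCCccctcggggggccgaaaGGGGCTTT
Bcl3: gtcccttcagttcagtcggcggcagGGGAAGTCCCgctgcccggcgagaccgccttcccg

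The table of promoters held 6 of the members, and in 5 of them (Rel, Nfkbia, Nfkb2, Bcl3 and Tnfaip3) at least 1 window held the consensus. Relb, Nfkb1, Nfkbiz and Ikbkb had no promoter window there and were not searched, and the Rela window held no match. Counted the same way, by gene with any window, 5.14% of 27025 genes and 6.16% of 10098 tested genes had a match, and of all 32851 windows 4.51% held it. Of 100 other pathway genes with a window, 24 had a match. The match in Rel ran from 92 to 82 bases before the gene start, that in Nfkbia from 29 to 20 bases before it, and that in Bcl3 from base 3 to base 12 after it. Rela, without a match, and Rel, with one, both lay higher in every anti-PD-1 liver. A match is a description of the letters and shows no binding.

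Of the other subunits, Rela encodes p65, which carries the transactivation domain of the most common NF-kB dimer. Its level was 35.8, 34.7 and 37.5 CPM in anti-PD-1 livers, against 30.5, 31.9 and 32.2 CPM in control livers. The groups did not overlap, but the distance was small: 36.0 ± 1.39 CPM after anti-PD-1 and 31.5 ± 0.92 CPM in controls (SD, n = 3 each), with a log2 fold change of 0.19 ± 0.09 (SE). Nfkb1, whose product p105 is processed to the DNA-binding subunit p50, was at 46.2, 37.4 and 39.1 CPM after anti-PD-1, against 32.5, 38.1 and 36.5 CPM in controls. Isotype control replicate 2 lay above anti-PD-1 replicate 2, so the groups overlapped (log2 fold change 0.19 ± 0.12).

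Nfkb2 and Relb encode the partners of the non-canonical pathway, p100/p52 and RelB. Nfkb2 was at 15.6, 11.1 and 10.8 CPM after anti-PD-1, against 9.01, 10.3 and 11.4 CPM in controls. Only anti-PD-1 replicate 1 lay above the control range. Relb, the subunit gene with the fewest reads (41 to 125 per library), was at 6.00, 2.73 and 2.43 CPM after anti-PD-1, against 2.54, 2.33 and 3.32 CPM in controls. Again anti-PD-1 replicate 1 alone stood above the controls, and without it the log2 fold change of 0.30 ± 0.32 became -0.06. Exons of Nfkb2 share 299 bases with Psd and 531 bases with a further gene on the opposite strand. Each of these 2 genes had at most 25 reads in a library, and whether the authors' counting used the strand is not given in the sources used here.

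**Figure D1:**
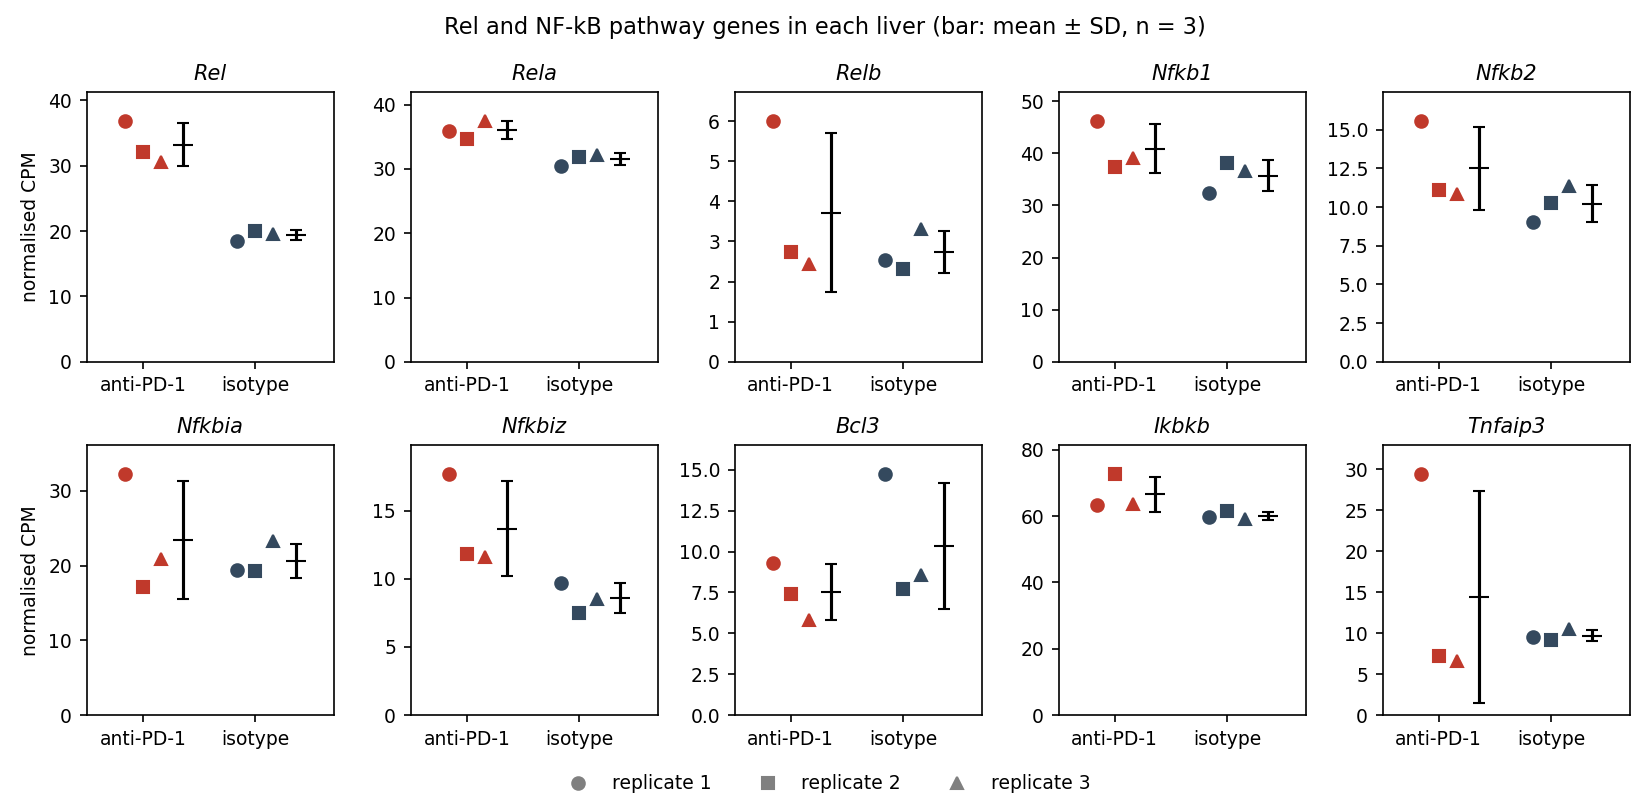
Level of each of the 10 genes in normalised CPM (vertical axis, from 0) in the 3 anti-PD-1 and the 3 isotype control livers, with symbols for replicates 1 to 3 and the mean ± SD beside them. The 3 Rel values after anti-PD-1 (30.6 to 36.8 CPM) lie above the 3 control values (18.6 to 20.1 CPM), while for Tnfaip3 anti-PD-1 replicate 1 (29.4 CPM) stands alone.

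Nfkbia encodes IkB-alpha, the inhibitor that NF-kB itself induces. It was at 32.2, 17.1 and 20.9 CPM after anti-PD-1, against 19.4, 19.3 and 23.3 CPM in controls. Anti-PD-1 replicates 2 and 3 lay within or below the control range, and the log2 fold change of 0.13 ± 0.22 (SE) was -0.12 without anti-PD-1 replicate 1.

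Nfkbiz encodes the nuclear protein IkB-zeta, which assists transcription of a set of secondary NF-kB targets. Its values were 17.7, 11.8 and 11.6 CPM in anti-PD-1 livers, against 9.71, 7.52 and 8.50 CPM in control livers. The groups did not overlap. Nfkbiz averaged 13.7 ± 3.46 CPM after anti-PD-1 and 8.58 ± 1.10 CPM in controls (SD, n = 3 each), a log2 fold change of 0.62 ± 0.19 (SE) that was 0.43 without anti-PD-1 replicate 1. It had the second largest fold change of the 10 genes.

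Bcl3, a nuclear IkB protein that binds p50 and p52, was the 1 member with a negative fold change. It was at 9.27, 7.39 and 5.85 CPM after anti-PD-1, against 14.7, 7.68 and 8.55 CPM in controls. Isotype control replicate 1 was far above the other controls, the groups overlapped, and the log2 fold change of -0.40 ± 0.27 (SE) was -0.13 without that library. The resident Kupffer cell markers were also highest in isotype control replicate 1, with a sum of 572 CPM against 315 and 356 CPM in isotype control replicates 2 and 3. Among controls the monocyte and macrophage sum (395 against 230 and 212 CPM), the pan-leukocyte sum and the B cell sum were highest there too. The hepatocyte sum (110716 against 88229 and 103078 CPM) was highest there as well. With small margins, the dendritic cell (27.6 against 26.4 and 25.8 CPM), neutrophil (9.39 against 9.31 and 8.70 CPM) and endothelial sums (431.9 against 430.1 and 429.8 CPM) were highest there too. The T cell, stellate cell and cholangiocyte sums were not. In anti-PD-1 replicate 1 the monocyte and macrophage sum was 1058 CPM, with Bcl3 at 9.27 CPM. The part of any of these cell types in the Bcl3 value was not tested.

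Ikbkb encodes IKK-beta, the kinase that phosphorylates IkB-alpha in the canonical pathway. It was at 63.3, 72.6 and 63.8 CPM after anti-PD-1, against 59.6, 61.5 and 59.1 CPM in controls. The groups did not overlap, and the log2 fold change was 0.14 ± 0.10 (SE). Tnfaip3 encodes A20, a ubiquitin-editing enzyme that ends NF-kB signalling and is itself an NF-kB target. It was at 29.4, 7.26 and 6.57 CPM after anti-PD-1, against 9.55, 9.14 and 10.5 CPM in controls. Anti-PD-1 replicate 1 lay above all controls and the other anti-PD-1 livers below all controls, so the log2 fold change of 0.21 ± 0.50 (SE) became -0.46 without that library.

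Taken as a list, 9 of the 10 members had a positive log2 fold change, with a median of 0.20, beside 50.5% positive and a median of 0.003 over the 13990 genes tested. Without anti-PD-1 replicate 1, 6 of 10 were positive and the median was 0.10. In 4 members (Rel, Rela, Nfkbiz and Ikbkb) every anti-PD-1 value lay above every control value, and in 0 below; over all tested genes these shares were 7.13% and 9.98%. None of the 10 passed an adjusted p of 0.05 by limma, where 0.00715% of tested genes did, and 2 (Rel and Nfkbiz) had an unadjusted p under 0.05 and were higher, beside 5.04% higher and 6.24% lower of all tested genes. DESeq2 on recovered reads called 1 member, Rel, with 1.83% of its tested genes called, edgeR called none of the members (0.0% of tested genes), and limma with the replicate number as a block called none of them (0.286% of tested genes). The members were chosen on this contrast, so nothing is read from these counts.

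**Figure D2:**
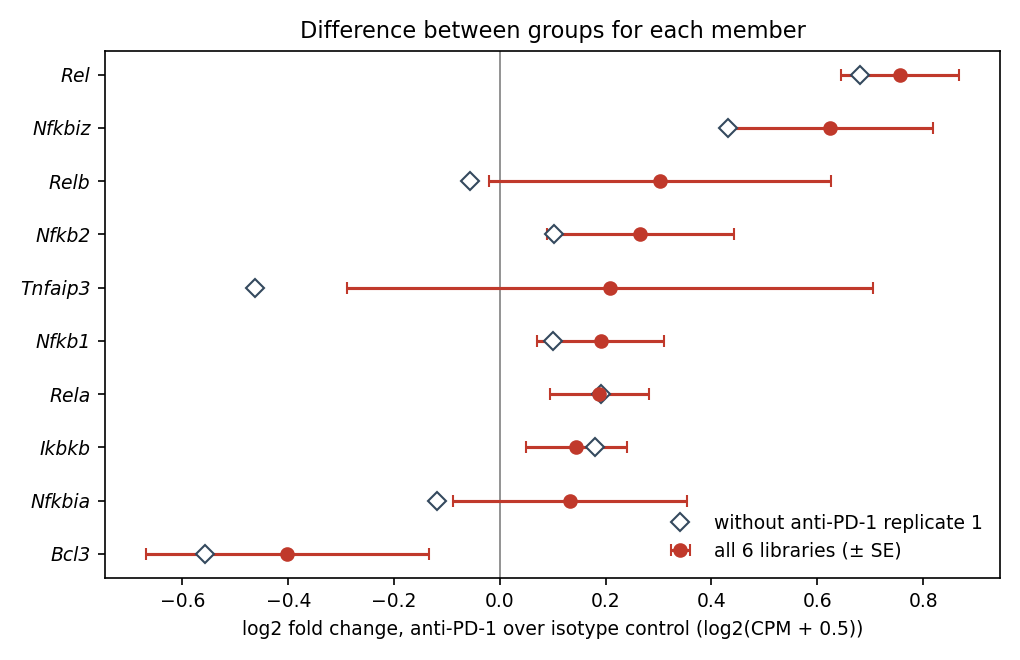
Log2 fold change of each of the 10 genes, anti-PD-1 over isotype control, on the log2(CPM + 0.5) scale (horizontal axis). Filled circles with SE bars use all 6 libraries and open diamonds leave out anti-PD-1 replicate 1; Rel stays at 0.68 while Tnfaip3, Relb and Nfkbia move below 0.

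How far the members followed anti-PD-1 replicate 1 differed widely. The ratio of that liver to the mean of the other anti-PD-1 livers, computed after the data had been seen, was 4.25 for Tnfaip3, 2.33 for Relb, 1.7 for Nfkbia, 1.51 for Nfkbiz, 1.42 for Nfkb2, 1.40 for Bcl3, 1.21 for Nfkb1, 1.17 for Rel, 0.99 for Rela and 0.93 for Ikbkb. For summed markers it was 5.33 for T cells, 4.36 for neutrophils, 3.71 for monocytes and infiltrating macrophages, 3.36 for B and plasma cells, 3.08 for all leukocytes and 2.20 for dendritic cells. It was 1.58 for cholangiocyte, 0.97 for stellate cell, 0.89 for endothelial, 0.84 for hepatocyte and 0.78 for resident Kupffer cell markers. The members thus formed a graded series, in which Tnfaip3 lay within the range of the T cell, neutrophil and macrophage lists, and Rel, Rela and Ikbkb near 1. Relb lay above the dendritic cell list but below the T cell, neutrophil, macrophage, B cell and pan-leukocyte lists. The part of leukocytes in these values was not tested. Over all tested genes the median ratio was 0.97.

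**Figure D3:**
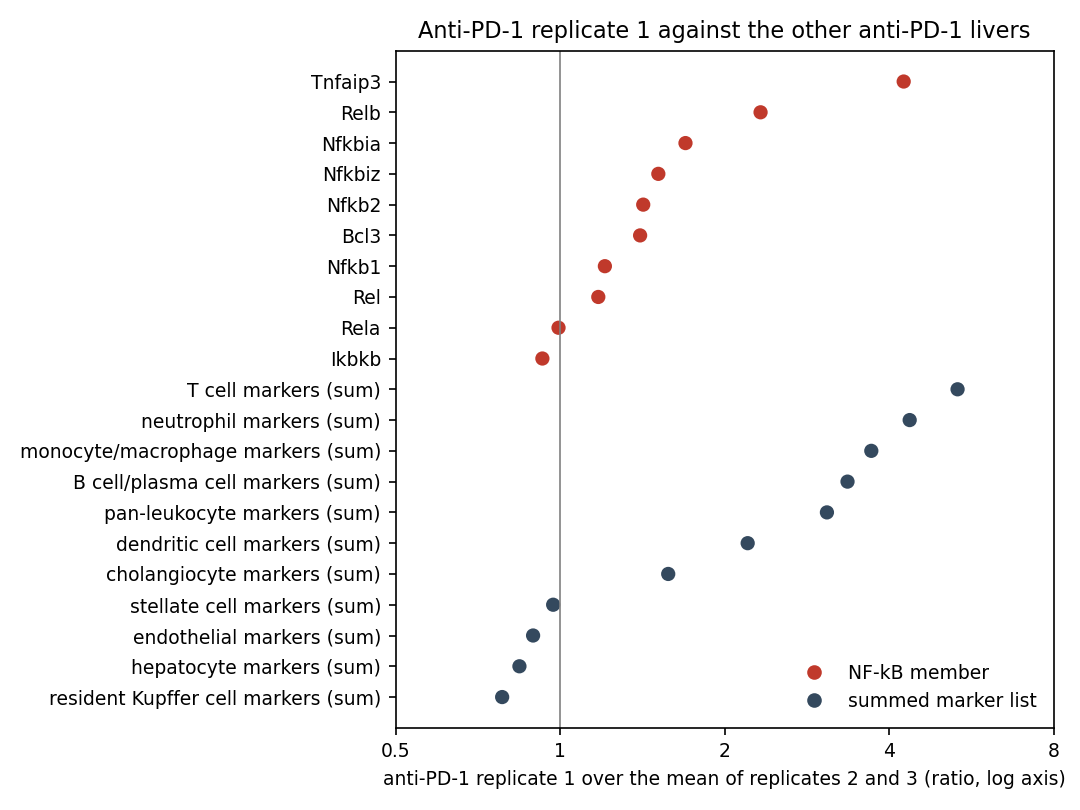
Ratio of anti-PD-1 replicate 1 to the mean of anti-PD-1 replicates 2 and 3 (horizontal log axis) for the 10 members and for the summed levels of 11 marker lists. Tnfaip3 (4.25) lies among the leukocyte lists other than resident Kupffer cells (2.20 to 5.33), and Rel (1.17), Rela (0.99) and Ikbkb (0.93) lie near 1.

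Levels of different genes were compared per kilobase of the longest protein-coding transcript (GENCODE M21). In control livers Ikbkb led with 15.1 ± 0.32 CPM per kb, before Nfkbia with 13.1 ± 1.44, Rela with 11.6 ± 0.34 and Nfkb1 with 8.68 ± 0.71 CPM per kb (SD, n = 3 each). Nfkbia spanned 12.2 to 14.8 CPM per kb there and did not overlap Ikbkb or Rela. Rel was the seventh of the 10 genes in controls, at 2.49 to 2.69 CPM per kb, within the range of Nfkb2 (2.34 to 2.95) and above Tnfaip3 (2.07 to 2.36). After anti-PD-1 Rel was the fifth, at 4.10 to 4.93 CPM per kb. That range overlapped those of Bcl3 (3.16 to 5.01 CPM per kb), Nfkbiz (2.82 to 4.30) and Tnfaip3 (1.49 to 6.65), lay above Nfkb2 (2.81 to 4.05) and stayed below Nfkb1 (9.09 to 11.2). Relb was the lowest in both groups, at 1.68 ± 0.90 CPM per kb after anti-PD-1 and 1.23 ± 0.24 CPM per kb in controls. The order depends on the transcript length used: over merged exons Rel was the third after anti-PD-1 and the sixth in controls. Merged exons of Ikbkb span 19078 bases and those of Nfkb1 12061 bases, against 3977 and 4117 bases for the transcripts used. Over merged exons Ikbkb did not lead in either group, and after anti-PD-1 the mean of Rel lay above that of Nfkb1.

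Of the summed level of the 5 subunit genes per kilobase, Rel made up 13.7, 14.2 and 13.1% in anti-PD-1 replicates 1 to 3, against 9.91, 9.81 and 9.42% in isotype control replicates 1 to 3. The share was higher in every treated liver, anti-PD-1 replicate 1 included, and restates the Rel values above relative to its partners.

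Of 12368 tested genes whose name is not that of a numbered gene model, a RIKEN clone or a bare identifier, those with the profile over the 6 libraries closest to that of Rel were Dusp5, Itga2, Slc2a3, Cyp3a59, Rassf1 and Sesn2. Likeness was the root mean square difference between log2 profiles, each centred on its own mean, and ran from 0.08 for Dusp5, a phosphatase of ERK, to 0.13 for Sesn2, a stress-induced sestrin. Dusp5 averaged 1.98 CPM after anti-PD-1 and 0.95 CPM in controls. Slc2a3, the glucose transporter GLUT3, averaged 2.02 CPM after anti-PD-1 and 1.18 CPM in controls. Itga2, the integrin alpha 2 chain, averaged 4.75 CPM after anti-PD-1 and 2.86 CPM in controls. Cyp3a59 belongs to a cluster of similar cytochrome P450 genes, so its reads are uncertain. Among the members Nfkbiz was closest to Rel, at 0.19 and the 65th of all 13989 other tested genes, such names included, and Bcl3 farthest, at 0.66. These values describe 6 libraries that share the group difference for which Rel was chosen.

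The rest of the pathway was read from 8 lists of 123 genes, of which 117 were in the table and 95 passed the filter. By limma 0 of the 95 were called in either direction, with 9 higher and 4 lower at an unadjusted p under 0.05, beside 5.04% higher and 6.24% lower of all tested genes. On recovered reads edgeR called 0 of the 95, and DESeq2 called 3 higher and 1 lower, beside 1.83% of all its tested genes in either direction. The median log2 fold change was 0.12 with 69 of 95 genes positive, and 0.05 with 55 of 94 positive without anti-PD-1 replicate 1. Every anti-PD-1 value lay above every control value for 14 of the 95 genes and below for 5, beside 7.13% and 9.98% of all tested genes. Bcl2a1d, which passed the filter through the anti-PD-1 libraries alone and so had to differ, is among the 95, the 9 and the 14, and these counts support no statement about the pathway.

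Among ligands, 4 of 5 tested genes were positive (median 0.11) and 0 were called. Without anti-PD-1 replicate 1, 2 of 5 were positive and the median was -0.11. Il1b, the inflammasome-processed cytokine, had 113, 14 and 42 reads after anti-PD-1, against 56, 24 and 26 reads in controls. Tnf, the founding NF-kB activator, did not reach the filter: treated libraries held 93, 16 and 6 reads, against 16, 7 and 4 reads in control libraries. Of the 9 ligand genes in the table, 6 had their highest value in anti-PD-1 replicate 1, beside 4143 of all 21512 genes.

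Of 16 tested receptor genes, 3 were higher at an unadjusted p under 0.05, beside 5.04% of all tested genes, and 0 were called by limma. Of the 16, 12 were positive, with a median log2 fold change of 0.37, and of 0.13 without anti-PD-1 replicate 1. Tnfrsf1b, the gene of TNF receptor 2, was at 123, 131 and 141 CPM after anti-PD-1, against 43.5, 76.2 and 86.3 CPM in controls. The groups did not overlap, and the log2 fold change of 0.99 ± 0.23 (SE) had a limma adjusted p of 0.253 and a DESeq2 adjusted p of 0.0102. Over the alternatives its adjusted p ran from that DESeq2 value to 0.685 with limma without anti-PD-1 replicate 3, and the same upper end held for Zc3h12a and Otud7b below. Il1r1, the signalling receptor for IL-1, was at 38.7, 76.8 and 63.4 CPM after anti-PD-1, against 33.8, 31.0 and 32.2 CPM in controls. It was lowest among treated livers in anti-PD-1 replicate 1, the reverse of all leukocyte sums but that of resident Kupffer cells, also lowest there. Its log2 fold change was 0.82 ± 0.23 (limma adjusted p 0.279, DESeq2 adjusted p 0.0162). With that library left out it was 1.10 (limma adjusted p 0.0343), and over the alternatives the adjusted p ran from 0.0162 with DESeq2 to 0.686 with limma. Tnfrsf1a, the gene of TNF receptor 1, averaged 70.1 ± 4.10 CPM after anti-PD-1 and 54.2 ± 4.51 CPM in controls (SD, n = 3 each), also without overlap (limma adjusted p 0.279).

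Adaptors and kinases had median fold changes near 0. Of 21 adaptor and ubiquitin ligase genes 14 were positive (median 0.03), and of 10 kinase genes 5 were positive (median -0.001). Tirap, which links Toll-like receptors to MyD88, averaged 9.86 ± 0.83 CPM after anti-PD-1 and 16.8 ± 4.79 CPM in controls (SD, n = 3 each; log2 fold change -0.71 ± 0.20, limma adjusted p 0.282). Ticam1, the adaptor TRIF, averaged 11.7 ± 0.60 CPM after anti-PD-1 and 14.8 ± 0.65 CPM in controls. In both adaptors every treated liver lay below every control liver. Ripk1, the kinase scaffold below TNF receptor 1, averaged 47.4 ± 3.05 CPM after anti-PD-1 and 40.2 ± 3.45 CPM in controls.

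The kinase partners of Ikbkb did not share 1 direction. Ikbkg, the regulatory IKK subunit NEMO, was at 46.0, 54.9 and 49.7 CPM after anti-PD-1, against 72.6, 63.7 and 59.8 CPM in controls (log2 fold change -0.38 ± 0.11, limma adjusted p 0.311). Chuk, the IKK-alpha gene, averaged 148 ± 18.9 CPM after anti-PD-1 and 156 ± 13.6 CPM in controls. The related kinase genes Tbk1 and Ikbke averaged 34.9 ± 1.43 and 18.8 ± 2.41 CPM after anti-PD-1, against 29.9 ± 1.25 and 15.0 ± 0.98 CPM in controls. Of the CARD-BCL10-MALT1 list, which carries antigen receptor signals to IKK, 4 of 6 tested genes were positive (median 0.23, and 0.002 without anti-PD-1 replicate 1).

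Among other inhibitors and feedback regulators 13 of 15 tested genes were positive (median 0.09), and 9 of 15 were without anti-PD-1 replicate 1 (median 0.08). DESeq2 called 1 of them higher and 1 lower, beside 1.83% of all its tested genes in either direction. Neither limma nor edgeR called any of them. Zc3h12a encodes the ribonuclease Regnase-1, known in mouse T cells to cleave Rel mRNA. It was at 9.85, 7.46 and 6.57 CPM after anti-PD-1, against 4.10, 4.06 and 2.97 CPM in controls. The groups did not overlap, with a log2 fold change of 1.00 ± 0.21 (limma adjusted p 0.232, DESeq2 adjusted p 0.0110). Otud7b encodes Cezanne, a deubiquitinase that restrains NF-kB. It was at 33.1, 36.1 and 33.7 CPM after anti-PD-1, against 49.0, 53.5 and 58.2 CPM in controls. The log2 fold change was -0.63 ± 0.10 (limma adjusted p 0.158, DESeq2 adjusted p 0.000455). It stayed at -0.61 when anti-PD-1 replicate 1 was left out. Nlrc5, a transactivator of MHC class I genes also described as an NF-kB inhibitor, averaged 51.6 ± 18.8 CPM after anti-PD-1 and 30.2 ± 4.84 CPM in controls (limma adjusted p 0.384).

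**Figure D4:**
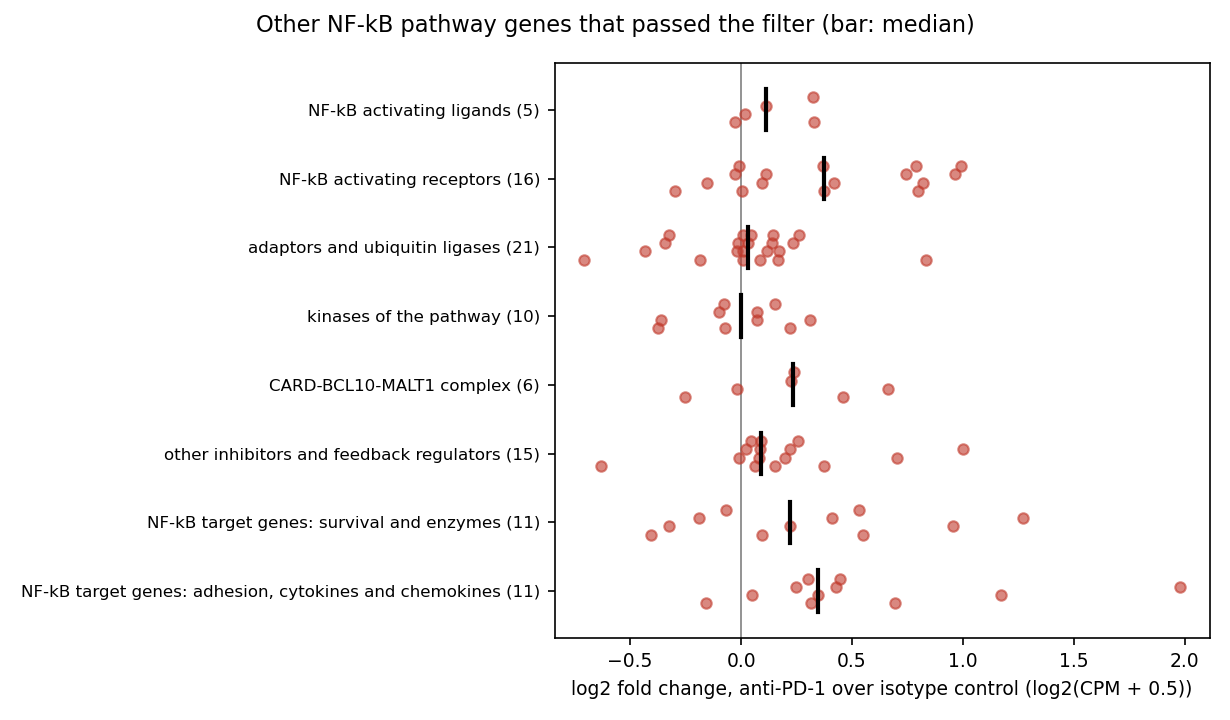
Log2 fold change, anti-PD-1 over isotype control, of the 95 pathway genes that passed the filter (points), by list with the number tested, and the median of each list (bar), on the log2(CPM + 0.5) scale. The receptors and the adhesion, cytokine and chemokine targets have the highest medians (0.37 and 0.34), and the kinases lie around 0.

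Known NF-kB target genes often had their highest value in anti-PD-1 replicate 1. That was so for 18 of the 18 adhesion, cytokine and chemokine genes in the table and 7 of the 13 survival and enzyme genes. Over all genes in the table it was so for 4143 of 21512. Of the 11 tested adhesion, cytokine and chemokine genes, 10 were positive, with a median of 0.34 that was 0.04 without that library. Ccl5, a T cell attracting chemokine, was at 25.2, 2.20 and 3.67 CPM after anti-PD-1, against 1.73, 1.52 and 0.55 CPM in controls (log2 fold change 1.98 ± 0.77, limma adjusted p 0.406). When anti-PD-1 replicate 1 was left out it was 1.00. Cxcl10, which is also induced by interferon, was at 13.8, 4.53 and 4.76 CPM after anti-PD-1, against 3.78, 2.65 and 1.96 CPM in controls. Its log2 fold change of 1.17 ± 0.42 (limma adjusted p 0.373) was 0.68 with that library left out. Both chemokine genes were higher in all treated livers than in any control. Icam1, an adhesion molecule for leukocytes, was at 31.7, 15.5 and 14.7 CPM after anti-PD-1, against 15.9, 12.6 and 14.7 CPM in controls.

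Of 11 tested survival and enzyme targets 7 were positive (median 0.22, and 0.07 without anti-PD-1 replicate 1, where 10 genes passed the filter). Birc3, an apoptosis inhibitor on the adaptor list that NF-kB induces, was at 31.0, 16.7 and 17.4 CPM after anti-PD-1, against 20.8, 20.5 and 20.9 CPM in controls. As with Tnfaip3, anti-PD-1 replicate 1 lay above all controls and the other anti-PD-1 livers below them. Cflar, the caspase-8 inhibitor c-FLIP, averaged 93.7 ± 6.76 CPM after anti-PD-1 and 119 ± 23.1 CPM in controls. Bcl2a1d and Bcl2a1b are near-identical copies whose reads cannot be assigned with certainty, and Bcl2a1d passed the filter through the anti-PD-1 libraries alone. Nos2, the inducible nitric oxide synthase gene, had 959, 0 and 5 reads after anti-PD-1, against 0, 2 and 4 reads in controls. Ptgs2, the cyclooxygenase-2 gene, had 145, 2 and 4 reads after anti-PD-1, against 3, 3 and 4 reads in controls. In both, anti-PD-1 replicate 1 alone stood apart. Tnf, Chuk, Icam1, Birc3, Nos2 and Ptgs2 were named after their values were seen.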

How the data were processed

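Whole-liver RNA of 3 anti-PD-1 and 3 isotype control mice was sequenced after ribosomal RNA depletion with a directional kit, per the labels' protocols. Trimmomatic 0.38, RSEM 1.3.0, Bowtie2, edgeR and GRCm39 are named, without roles, per the submitters' processing notes. The authors deposited a signal for each gene in each library, read counts divided by a TMM-scaled library size. Dividing by what 1 read is worth gave whole reads for 100% of values (within 0.001 read). Symbols matched 21407 identifiers.

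Genes with at least 1 CPM in at least 3 libraries were tested with limma 3.58.1 (R 4.3.3, intensity trend, log2(CPM + 0.5), two-sided, Benjamini-Hochberg over all 13990 genes, threshold 0.05). Recovered reads were also tested with edgeR 4.0.16 and DESeq2 1.42.0, and the fits were tested on simulated data. Alternatives changed the pseudocount, filter, scaling, trend, threshold and block, and left out each library. Replicates are numbered 1 to 3 in both groups in the labels. Deviations of same-numbered libraries correlated at 0.149, 0.135 and 0.251, all over 0.1, and those of differently numbered libraries at -0.219 to 0.0631. Deviations within a group of 3 sum to 0, so such values cannot show that the mice were paired. No other ground pairs them, and the block by replicate number was used as an alternative fit only.

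The 10 members and the pathway and marker lists were chosen with earlier results of these data known. Named pathway genes are up to 3 per list with the smallest unadjusted p. The values of 1 gene that this rule names are not reported here. The labels say nothing of litters, cages or batches, and p-values set the group difference against the spread between livers of the same group. A comparison of 3 livers with 3 cannot go below 0.1 in an exact permutation test.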

Additional observations from a re-analysis of the deposited data

How the results depend on the processing

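Over 16 alternatives the log2 fold change of Rel stayed between 0.68 and 0.81, and 0 of them moved a member's value by more than its pooled replicate SD. Leaving out 1 of 3 livers cannot shift a fold change by that much, whatever the values. The filter, trend and block settings leave a fold change unchanged. For those fits the measure therefore shows no stability. Only leaving out anti-PD-1 replicate 1 turned the sign of Nfkbia, Relb and Tnfaip3. Relb had no value with the filter of 5 CPM. Scaling to library totals shifted the median of all genes by -0.02 and quantile normalization by -0.02. The count of all genes called was 1 higher and 0 lower by limma, 27 and 13 with the replicate block, 0 and 0 by edgeR, and 147 and 109 by DESeq2. The blocked fit, which treats the mice as paired, called no member and no pathway gene. Leaving out 1 library gave 0 to 23 genes higher and 0 to 6 lower, with 23 and 6 without anti-PD-1 replicate 1, 0 higher without anti-PD-1 replicate 2 or 3, and 2 higher without isotype control replicate 2. Pathway genes called higher numbered 3 and lower 1 by DESeq2, and 0 to 1 higher when 1 library was left out, the 1 being Il1r1 without anti-PD-1 replicate 1. The log2 fold change of Il1b ran from -0.20 to 0.82 and that of Il33 from -0.18 to 0.29 over the libraries left out, each negative only without anti-PD-1 replicate 1. The cause of these shifts was not tested. Depth limits Relb most, with 41 reads in its lowest library, and counting error is then a visible part of its spread.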
